A study of Mus musculus with 8 samples.

Results

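The respiratory chain is described here by 121 gene rows of 24976 in a count table of tumour-infiltrating mouse CD8 T cells. The rows were taken by symbol: the Nduf a, b, c, s and v families, Sdha to Sdhd, and the Uqcr, Cox4 to Cox8, Atp5 and MT- symbols, with 2 rows dropped because their symbols contain -ps. Of these, 84 are encoded in the nucleus and 37 in mitochondrial DNA. Counts were high enough for testing in 79 nuclear members and in 16 MT- rows (13 mRNAs, both rRNAs and 1 tRNA), among 13073 genes tested in all. The rule follows symbols, so complex I takes in Ndufb4c, which the annotation lists as a processed pseudogene, and Ndufa4 is placed here with complex IV, of which it is a subunit.

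The chain passes electrons from NADH (complex I) and succinate (complex II) through complex III to oxygen at complex IV, and the proton gradient that complexes I, III and IV build drives ATP synthase (complex V). Complexes I, III, IV and V are mosaics, whose few membrane-embedded core subunits come from mitochondrial DNA and whose other core subunits and many small accessory subunits come from the nucleus, while complex II is nuclear throughout. In T cells the chain is known for supporting memory and long-lived states, and loss of mitochondrial function is a known trait of exhausted cells in tumours.

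The study compared CD8 T cells that had been transferred into Rag2-/- mice, which make no lymphocytes with antigen receptors, and which bore tumours of B16-OVA, a melanoma line expressing ovalbumin. Tumours were placed under the skin 10 days before transfer, and cells were collected on day 10 after it. Donor cells were WT or came from Cd8Cre mice with both alleles of NR4a1 and NR4a2 floxed and with OT-I Tg/+, a T cell receptor transgene against ovalbumin, called dKO below. The name Cd8Cre puts the recombinase under Cd8 control, and whether the WT cells carried OT-I is not stated. Sorted CD3e+CD8+ cells were either PD1+Tim3- or PD1+Tim3+, Tim3 being a marker of more terminal exhaustion, which gave 4 groups (WT PD1+Tim3-, dKO PD1+Tim3-, WT PD1+Tim3+ and dKO PD1+Tim3+) with 2 libraries each. Each library came from the cells of 1 implanted mouse per the labels, which do not give the donors' or hosts' age.

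Libraries held 1944999 to 13418762 counts, the fewest in dKO PD1+Tim3- replicate 2. Havcr2, the Tim3 gene, was at 2.28 to 3.62 CPM (counts scaled by edgeR to a common library size with TMM factors) in the 4 PD1+Tim3- libraries and at 41.8 to 58.2 CPM in the 4 PD1+Tim3+ libraries. Of the floxed genes, Nr4a1 was at 789 to 979 CPM in the WT libraries and at 1175 to 1488 CPM in those labelled dKO, and Nr4a2 at 958 to 1034 and 929 to 984 CPM, slightly lower with overlap. Counts summed over a whole gene do not check a deletion of some exons, so the deletion was not checked and genotype is used as the labels give it. Of 10 markers of the sorted cells, 7 are in the table, with 2709 to 4066 CPM in sum. Summed marker lists for melanoma cells (9 of 10 genes in the table) held 20.6 to 24.6 CPM, macrophages and monocytes (10 of 12) 8.74 to 19.5 CPM, fibroblasts and endothelium (8 of 8) 22.1 to 41.2 CPM, neutrophils (4 of 5) 2.06 to 4.34 CPM, NK cells (4 of 4) 5.37 to 15.7 CPM, CD4 and regulatory T cells (2 of 2) 0.208 to 2.73 CPM and B cells (4 of 5, with Ms4a1 at 0 in every library) 3.08 to 6.77 CPM. Some measures moved with the populations. The NK list was at 5.37 to 7.29 CPM in WT PD1+Tim3- and 13.3 to 15.7 in WT PD1+Tim3+. In dKO it was at 6.68 to 6.70 and 7.61 to 8.91 CPM. In WT the macrophage list (11.8 to 14.8 against 18.5 to 19.5 CPM) and the CD4 list (0.208 to 0.511 against 2.38 to 2.73 CPM) were higher in PD1+Tim3+. Melanoma and B cell lists were also higher there, while the neutrophil list and that of fibroblasts and endothelium were lower, all without overlap. The dendritic cell list (8 of 8) was at 26.4 to 28.2 CPM in WT PD1+Tim3-, 34.4 to 35.0 in dKO PD1+Tim3-, 58.4 to 63.6 in WT PD1+Tim3+, and at 49.9 to 58.8 in dKO PD1+Tim3+, and the erythroid list (6 of 6) at 3.54 to 7.28 CPM in PD1+Tim3- against 6.71 to 112 CPM in PD1+Tim3+ libraries. Ribosomal RNA rows took 1.60% to 2.37% of counts in PD1+Tim3- and 6.52% to 8.36% in PD1+Tim3+ libraries. The share of counts in transcripts under 700 bases was 10.1% and 10.1% in WT PD1+Tim3-, 9.02% and 7.52% in dKO PD1+Tim3-, 6.89% and 6.75% in WT PD1+Tim3+, then 7.23% and 9.73% in dKO PD1+Tim3+. The second dKO libraries therefore stand apart from their partners in opposite directions, and the calls and medians of members in dKO are given with and without them.

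Per kilobase of transcript, the levels of nuclear members spanned a wide range within every complex. Cox7b, a small subunit of complex IV, was the highest at a mean of 1324 CPM per kilobase over the 8 libraries, followed by Atp5g3 (885) and Atp5g2 (817), which encode the same rotor-ring subunit of ATP synthase, and by Cox4i1 (555), the regulatory subunit 4 of complex IV. In complex I the highest were Ndufa6 (248), Ndufb9 (170) and Ndufb7 (134), all accessory, and in complex III Uqcrh (402), Uqcrq (272) and Uqcr10 (190), likewise accessory. In complex II, the iron-sulfur subunit Sdhb was at 112 CPM per kilobase, its anchor subunit Sdhd at 56.3, the flavoprotein Sdha at 39.5 and the other anchor Sdhc at 24. The mitochondrially encoded mRNAs lay above most nuclear members, from 197 CPM per kilobase for MT-Nd6 to 6671 for MT-Co1, the catalytic subunit of complex IV, and 6920 for MT-Atp6, the proton channel of ATP synthase.

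Where a subunit has a second, tissue-restricted isoform, the common one held nearly all counts. The heart, muscle or lung forms Cox8b, Cox4i2, Cox6a2 and Cox7a1 held 0.0683%, 0.0535%, 0.36% and 1.02% of the counts of their pairs, and Ndufa4l2, a hypoxia-linked relative of Ndufa4, held 1.01%. None of these 5 was high enough for testing, and they are the 5 nuclear members not tested. The testis forms Cox7b2 and Cox6b2, at 0.486% and 2.24% of their pairs, were tested. The 3 genes for the rotor ring, which yield 1 mature protein, had similar proportions across libraries: Atp5g3 held 54.8% to 59.3% of their counts, Atp5g2 30.7% to 32.9% and Atp5g1 9.1% to 14.5%.

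Nuclear members together took 1.12% and 1.14% of all counts in WT PD1+Tim3-, 1.07% and 0.989% in dKO PD1+Tim3-, 1.03% and 1.02% in WT PD1+Tim3+, then 1.08% and 1.21% in dKO PD1+Tim3+. The WT share was thus lower in PD1+Tim3+ and the dKO share higher, with no overlap between groups in either genotype. Cox7b weighs on these sums. Without it the WT groups overlap (0.892% and 1.01% against 0.947% and 0.929%), while the dKO groups still do not (0.921% and 0.811% against 1.01% and 1.1%). MT- rows together took 3.9% to 4.35% of counts, with overlap in all 4 comparisons. Their parts differed more: MT- rRNA was at 0.829% and 0.776% in dKO PD1+Tim3- against 1.03% and 1.06% in dKO PD1+Tim3+, and overlapped only between genotypes in PD1+Tim3+. MT- mRNA was at 3.34% and 3.5% against 3.33% and 2.84% in dKO, and overlapped in the other comparisons. The MT- complex I mRNAs did not overlap in any of the 4, at 0.615% and 0.643% in WT PD1+Tim3-, 0.614% and 0.604% in dKO PD1+Tim3-, 0.602% and 0.590% in WT PD1+Tim3+, and at 0.581% and 0.577% in dKO PD1+Tim3+. Over a total without MT- and rRNA rows this differed: MT- mRNA overlapped in dKO and MT- complex I in WT, MT- rRNA overlapped in no comparison, and MT- complex I was higher in dKO PD1+Tim3+ than in dKO PD1+Tim3-. In bulk samples fewer cells of a kind and less RNA per cell cannot be told apart, and members of 1 list are not replicates, so these sums carry no test.

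**Figure D1:**
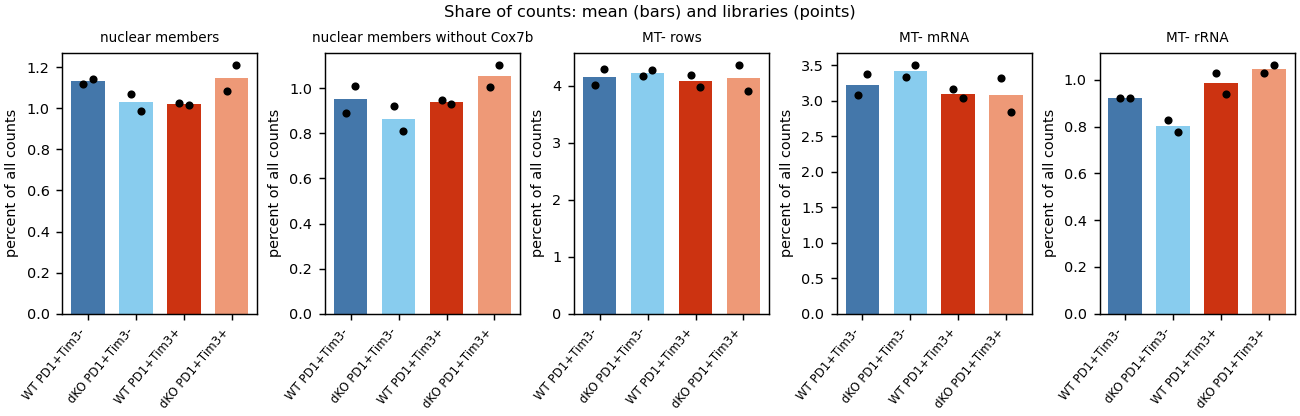
Percent of all counts held by nuclear members, nuclear members without Cox7b, MT- rows, MT- mRNA and MT- rRNA; bars are group means, points the 2 libraries of a group. Nuclear members without Cox7b run from 0.811% to 1.1%, and MT- rows from 3.9% to 4.35% with overlapping groups.

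In WT cells, some of the small accessory subunits fell in PD1+Tim3+ relative to PD1+Tim3- cells, and no nuclear core subunit of complexes I to III did. By edgeR's quasi-likelihood test with Benjamini-Hochberg adjustment over all genes, 28 of 79 nuclear members passed an adjusted p of 0.05, 27 lower and 1 higher, where 17% of all genes tested passed in either direction (8.76% lower and 8.25% higher). At an unadjusted p under 0.05 there were 47 nuclear members, against 31.6% of all genes. DESeq2 called 25, all lower, where it called 10.3% of genes, and limma-voom 31, of which 27 were lower, where it called 18.2%. The median log2 fold change was -0.40 over the nuclear members and 0.01 over all genes. The accessory subunits of complex I had a negative change in 24 of 28, with 13 called lower; those of complex III in 5 of 5, with 3 called; those of complex IV in 10 of 11, with 6 called; and the small membrane subunits of ATP synthase in 4 of 4, with 2 called. Against them, the 17 members that are nuclear core subunits of complexes I to III or the alpha, beta and gamma subunits of the ATP synthase head all had a positive change (median 0.21), of which 1 was called. Core and accessory subunits also differ in transcript length. The median was 1653 bases for these 17, against 693.5, 445 and 618 for the accessory subunits of complexes I, III and IV.

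Complex I carries its redox centres in 7 nuclear core subunits, and their changes were positive in all 7, none called. Its accessory subunit Ndufa3 was at 22.7 and 18.5 CPM in WT PD1+Tim3-, 11.9 and 6.3 in dKO PD1+Tim3-, 5.78 and 7.21 in WT PD1+Tim3+, and at 5.58 and 19.0 in dKO PD1+Tim3+. Both WT PD1+Tim3- libraries were high and both WT PD1+Tim3+ libraries low, whereas the dKO PD1+Tim3+ libraries were far apart. Its WT change of -1.63 ± 0.39 (log2, SE; adjusted p = 0.015) was the lowest of any nuclear member. Ndufs4, an accessory subunit needed for the last step of complex I assembly, was at 42.4 and 40.2 CPM against 29.4 and 28.8 CPM, with no overlap (-0.51 ± 0.11, adjusted p = 0.0097). Ndufb3, a membrane-arm accessory subunit, was at 51.5 and 48.1 against 30.1 and 30.8 CPM, again without overlap (-0.71 ± 0.17, adjusted p = 0.014).

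All 4 subunits of complex II had a positive change and none passed the test. Sdhb was at 107 and 107 CPM in WT PD1+Tim3- and at 138 and 146 CPM in WT PD1+Tim3+, above without overlap (0.40 ± 0.13, adjusted p = 0.06). Sdhd was at 54.3 and 60.9 against 76.2 and 81.4 CPM (0.46 ± 0.15, adjusted p = 0.06). Both sit just outside the threshold, and Sdha had the smallest change of the complex (0.02 ± 0.11, adjusted p = 0.94).

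In complex III, Uqcrfs1, the Rieske iron-sulfur protein that passes electrons to cytochrome c1, was the 1 nuclear member that rose. It was at 109 and 136 CPM in WT PD1+Tim3-, 131 and 138 in dKO PD1+Tim3-, 170 and 177 in WT PD1+Tim3+, and at 177 and 144 in dKO PD1+Tim3+. The PD1+Tim3+ libraries lay above the PD1+Tim3- libraries in both genotypes, and the WT change was 0.50 ± 0.14 (adjusted p = 0.027). The accessory subunits went the other way: Uqcrh, the hinge protein, fell from 287 and 250 to 176 and 161 CPM (-0.68 ± 0.17, adjusted p = 0.02).

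In complex IV, Cox7b was at 2535 and 1308 CPM in WT PD1+Tim3-, 1484 and 1821 in dKO PD1+Tim3-, 753 and 860 in WT PD1+Tim3+, and at 730 and 1111 in dKO PD1+Tim3+. All 4 PD1+Tim3+ libraries lay below all 4 PD1+Tim3- libraries, although the first WT PD1+Tim3- library was far above its partner. The change was -1.25 ± 0.28 in WT (adjusted p = 0.011) and -0.84 ± 0.28 in dKO (adjusted p = 0.083). Cox7a2, a small membrane subunit of complex IV, was at 96.3 and 83.3 CPM in WT PD1+Tim3-, 70.2 and 49.9 in dKO PD1+Tim3-, 47.1 and 45.8 in WT PD1+Tim3+, and at 57.5 and 93.8 in dKO PD1+Tim3+. The WT groups were far apart (-0.96 ± 0.20, adjusted p = 0.0094) and the dKO groups overlapped. Cox6c fell from 219 and 162 to 104 and 99.3 CPM (-0.91 ± 0.22, adjusted p = 0.015). Cox7b2, the testis form, fell too, from 10.4 and 8.5 to 3.91 and 4.21 CPM (-1.21 ± 0.26, adjusted p = 0.0096).

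In ATP synthase, Atp5e, the epsilon subunit of the central stalk, was at 320 and 267 CPM in WT PD1+Tim3-, 203 and 143 in dKO PD1+Tim3-, 114 and 126 in WT PD1+Tim3+, and at 142 and 319 in dKO PD1+Tim3+. It fell in WT by 1.29 ± 0.29 on the log2 scale (adjusted p = 0.012), and its dKO PD1+Tim3+ libraries were again far apart. The small membrane subunits Atp5mpl (89.7 and 70.1 against 34.5 and 34.5 CPM; -1.22 ± 0.26, adjusted p = 0.01) and Atp5j2 (122 and 94.1 against 45.9 and 55.6 CPM; -1.08 ± 0.25, adjusted p = 0.014) fell with it. Atp5b, the catalytic beta subunit, was at 578 and 628 against 677 and 734 CPM and was not called (0.23 ± 0.13, adjusted p = 0.25). Of the rotor-ring genes Atp5g1 was called lower (-0.54 ± 0.14, adjusted p = 0.026), whereas Atp5g2 (0.03 ± 0.13) and Atp5g3 (0.05 ± 0.12) were not called.

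**Figure D2:**
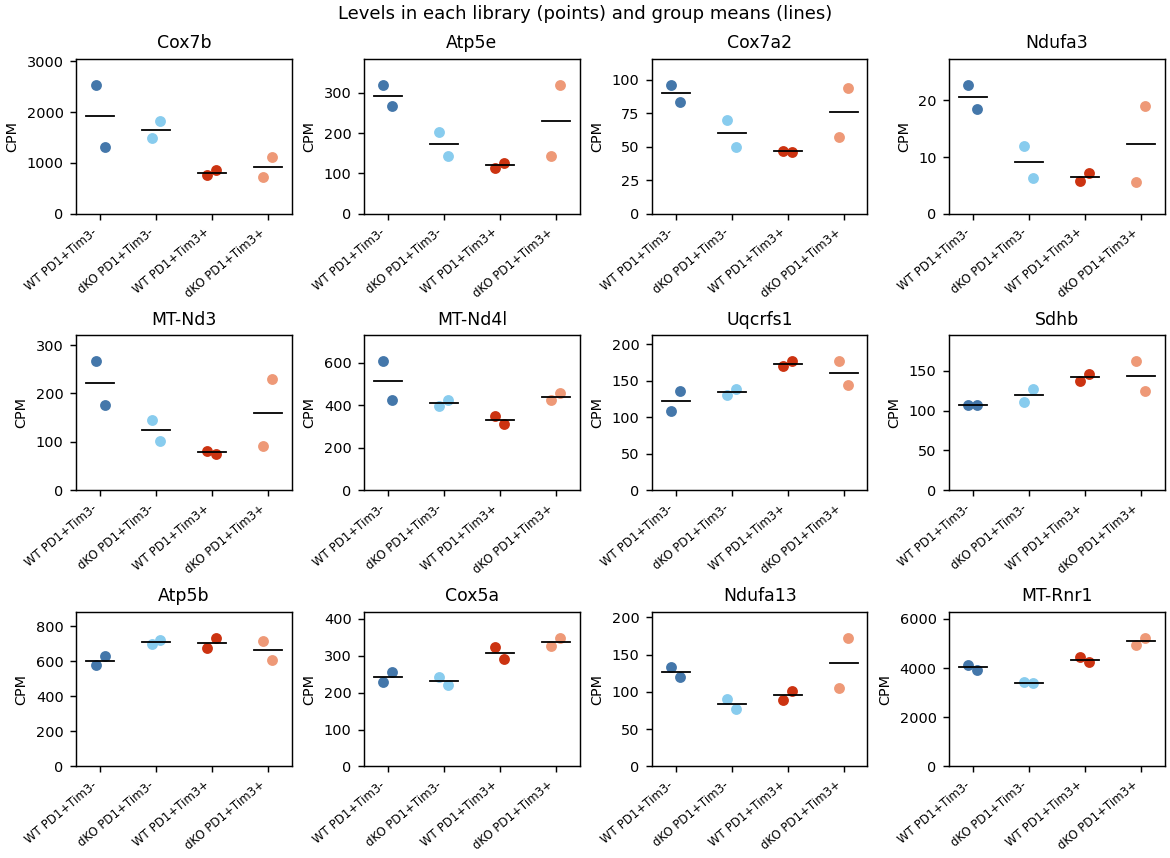
CPM of 12 members in each of the 8 libraries (points) with group means (lines); axes start at 0. In Atp5e, Ndufa3 and MT-Nd3 the WT groups are apart and the dKO PD1+Tim3+ libraries lie far apart, while Cox7b is below in all 4 PD1+Tim3+ libraries and Uqcrfs1 above.

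**Figure D3:**
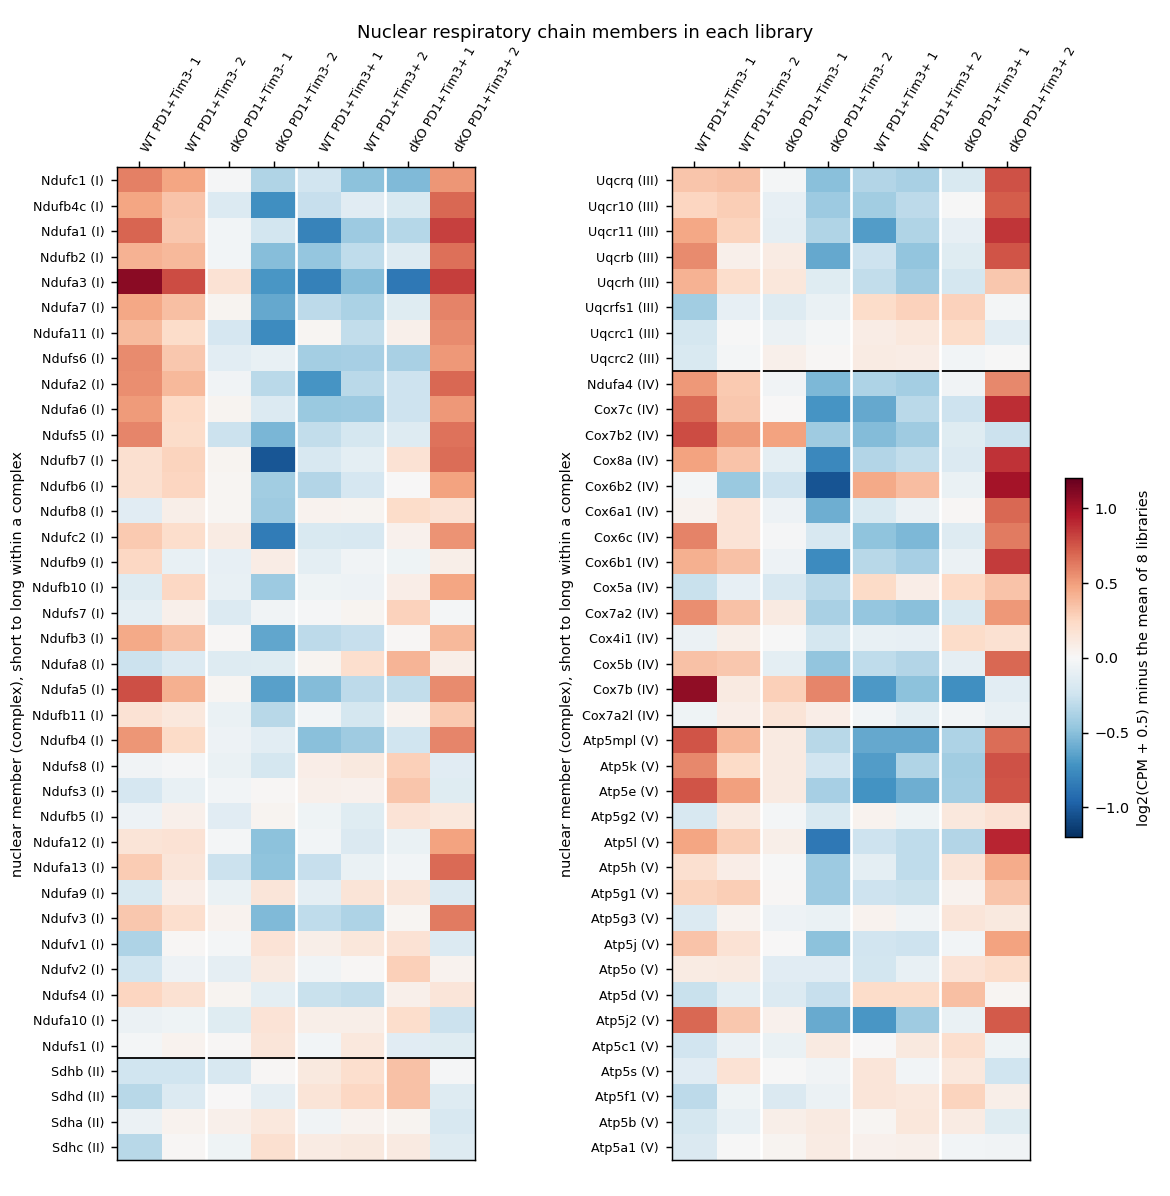
log2(CPM + 0.5) minus the mean of the 8 libraries for the tested nuclear members except 1, by complex and from short to long transcripts within each. Short members are high in both WT PD1+Tim3- libraries and in dKO PD1+Tim3+ replicate 2 and low in dKO PD1+Tim3- replicate 2; most long members vary less, with Cox7b, Ndufa13 and Ndufv3 among the exceptions.

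The members' changes followed their transcript length. Lengths (the annotated principal mRNA, GENCODE M21) had a median of 732 bases over the nuclear members tested and 2684 bases over all genes tested that have one. Among nuclear members, 37 tested were under 700 bases: their median WT change was -0.74, 33 of 37 were negative and 19 were called lower. Among the 26 of 1000 bases or more the median was 0.14, 7 were negative, 3 were called lower (Cox7b, Ndufs4 and Ndufv3) and 1 higher. Across the 79 members the Pearson correlation of the WT change with log2 length was 0.61, and Spearman's rho was 0.65; members share libraries, so this is a description only. The exceptions were few: the 4 short members with a positive WT change were Atp5g2, Cox5a, Cox6b2 and Ndufb8, named here after their values were seen.

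All tested genes, the members included, showed the same gradient in smaller measure. The 611 under 700 bases had a median WT change of -0.41, with 178 lower and 18 higher, and the medians of all genes in the classes under 400, 400 to 500, 500 to 600 and 600 to 700 bases were -0.56, -0.53, -0.46 and -0.29. Members of the same classes stood at -0.94, -0.80, -0.74 and -0.48, below all genes of their length in each. All genes of 1500 to 2000 bases had a median WT change of 0.16, and members of that class 0.21. Cytosolic ribosomal protein genes, a list of likewise short transcripts (median 778 bases), had a median WT change of -0.82 with 62 of 92 lower. Mitochondrial ribosomal protein genes, at a median of 1253 bases, had a median of 0.05 with 10 of 78 lower.

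The fit was repeated with an offset for each gene and library that removes the smooth trend of level on transcript length. The median WT change of nuclear members became -0.19, and 17 were called, 13 lower and 4 higher, where 15.3% of all genes were called (8.38% lower and 6.93% higher). Of the 28 first called, 14 were called again: Uqcrfs1, still higher, and Atp5e, Atp5j2, Atp5mpl, Cox6c, Cox7a2, Cox7b, Cox7b2, Ndufa3, Ndufa5, Ndufb3, Ndufb4, Ndufs4 and Ndufv3, still lower. Cox5a, Atp5d and Atp5g2 were called, higher, with the offsets alone. Under 700 bases the members' median was -0.32 with offsets and that of all genes -0.01. The offsets remove the trend over all genes, so this last value is set by the method. Cytosolic ribosomal protein genes had a median WT change of -0.57 with offsets, with 57 of 92 called lower. Mitochondrial ribosomal protein genes stood at 0.02 with offsets, with 9 of 78 called lower. The 5 small accessory subunits of complex III held no call with offsets. All 5 stayed negative, with a median of -0.29 near that of the short members. With offsets the 17 core and ATP synthase head members had a median of 0.11, with 2 negative and 1 called. How far the share of short transcripts, ribosomal RNA or the marker lists of other cells account for the members' changes was not tested.

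**Figure D4:**
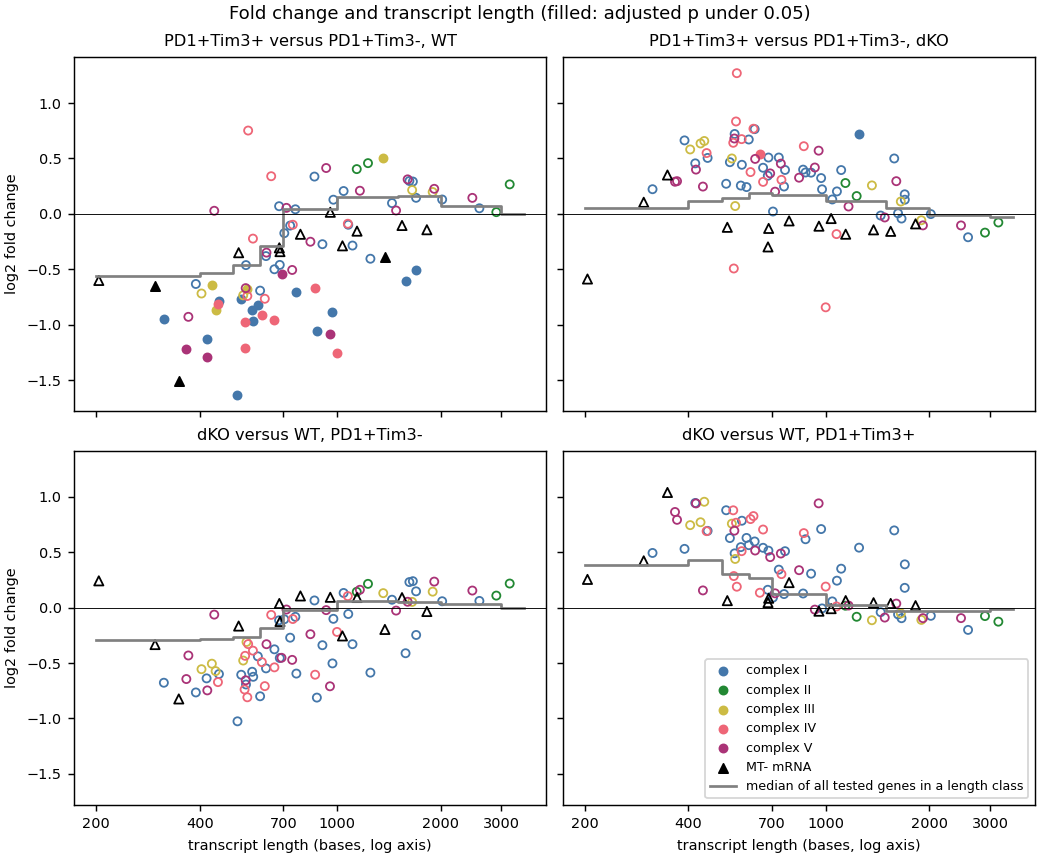
log2 fold change against transcript length (log axis) for nuclear members (circles, by complex) and MT- mRNAs (triangles) in 4 comparisons; filled symbols passed an adjusted p of 0.05 and the grey line is the median of all tested genes in a length class. In WT the members under 700 bases lie at a median of -0.74, and in dKO at 0.50.

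The WT calls depended on single libraries. No nuclear member was called without WT PD1+Tim3- replicate 1 or without either WT PD1+Tim3+ library, fits in which 3.17% to 4.49% of all genes were called. Without dKO replicate 2 of both populations 45 nuclear members were called (19.3% of all genes), and with the 4 WT libraries alone 46 (20.3%). The median WT change stayed between -0.47 and -0.37 when any 1 library was left out.

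In cells labelled dKO the difference between populations had the other sign for most short members. The median change of nuclear members was 0.33, 66 of 79 were positive, and 2 were called, both higher, where 9.93% of all genes were called (5.21% higher and 4.72% lower). DESeq2 called 8 nuclear members, 7 of them higher, where it called 7.8% of genes, and limma-voom 1, where it called 8.57%. Cox5a, a nuclear subunit of complex IV, was at 242 and 221 CPM in dKO PD1+Tim3- and at 325 and 349 CPM in dKO PD1+Tim3+, without overlap (0.54 ± 0.12, adjusted p = 0.023). The WT libraries were ordered alike (228 and 257 against 324 and 291 CPM), with 0.34 ± 0.12 and adjusted p = 0.08. Ndufa13, an accessory subunit of complex I also known as GRIM-19, was at 89.9 and 76.6 CPM in dKO PD1+Tim3- and at 105 and 173 CPM in dKO PD1+Tim3+ (0.72 ± 0.20, adjusted p = 0.045). Its WT libraries ran the other way, at 133 and 119 against 88.8 and 102 CPM. The exons of both genes overlap exons of a neighbour on the other strand (Gm26631 by 145 bases and Tssk6 by 375 bases), so without a stated strand setting the reads there cannot be assigned. Exons of 25 of the 84 nuclear members overlap those of another gene, mostly on the other strand. Ndufb5 (530 bases), Uqcrc2 (504 bases) and Ndufa3 (4 bases) are among them.

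The dKO median depends on the second libraries. Without them it was 0.01 and 1 nuclear member was called. Neither Cox5a (0.43, adjusted p = 0.15) nor Ndufa13 (0.23, adjusted p = 0.45) passed then. Without dKO PD1+Tim3+ replicate 1 alone 32 nuclear members were called (5.64% of all genes), and without either dKO PD1+Tim3- library Cox5a (adjusted p = 0.10 and 0.16) and Ndufa13 (adjusted p = 0.15 and 0.22) were not; Ndufa13 was not called without dKO PD1+Tim3+ replicate 2 either (adjusted p = 0.21). Members under 700 bases had a median dKO change of 0.50, with 36 of 37 positive, and those of 1000 bases or more 0.04. All genes under 700 bases had a median of 0.12. Relative to the mean of the 8 libraries, the short members' median was -0.01 and -0.44 (log2) in the dKO PD1+Tim3- libraries and -0.15 and 0.67 in the dKO PD1+Tim3+ libraries, against 0.48, 0.29, -0.35 and -0.33 in the WT libraries. With length offsets neither Cox5a (adjusted p = 0.054) nor Ndufa13 (adjusted p = 0.11) was called, and Ndufa11 and Uqcr10 were, where 9.67% of all genes were called (5.13% higher and 4.54% lower). The highest dKO changes were those of Cox6b2 (1.27 ± 0.61, adjusted p = 0.24), which has few counts, of Cox8a (0.83 ± 0.28, adjusted p = 0.095) and of Cox6b1 (0.77 ± 0.26, adjusted p = 0.098), all of complex IV. Cox8a was at 204 and 129 CPM in dKO PD1+Tim3- and at 197 and 404 CPM in dKO PD1+Tim3+, so that its groups overlapped, and without the second libraries its change was -0.04. The lowest were those of Cox7b, Cox7b2 (-0.49 ± 0.31, adjusted p = 0.38) and Ndufs1 (-0.21 ± 0.12, adjusted p = 0.31), the largest core subunit of complex I.

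Between genotypes no member was called. In PD1+Tim3- cells the median of nuclear members was -0.34 in dKO relative to WT, with 59 of 79 negative and all 37 short members among them; 6 of 13073 genes, 0.0459%, were called (0.0306% lower), and the same share with length offsets. At an unadjusted p under 0.05 there were 29 nuclear members, against 8.27% of all genes. In PD1+Tim3+ cells the median was 0.44, with 63 of 79 positive and again all 37 short members on that side; 0.627% of all genes were called (0.26% higher), or 0.604% with length offsets (0.237% higher), and 41 nuclear members had an unadjusted p under 0.05, against 12% of all genes. Ndufa3 had the lowest change in PD1+Tim3- (-1.03 ± 0.43, adjusted p = 0.58), followed by Ndufa5 and Cox8a (-0.81 each), and Uqcr11 the highest in PD1+Tim3+ (0.96 ± 0.25, adjusted p = 0.14), followed by Ndufa1 (0.95) and Atp5j2 (0.94). The opposite ends were held by core subunits, among them Ndufv1 (0.24) and Atp5b (0.24) in PD1+Tim3- and Ndufs1 (-0.20), Sdhc (-0.13) and Uqcrfs1 (-0.11) in PD1+Tim3+. Uqcr11, a small accessory subunit of complex III, was at 23.6 and 29.3 CPM in WT PD1+Tim3+ and at 35.2 and 69.1 CPM in dKO PD1+Tim3+, above without overlap, with most of the gap from the second library. Both comparisons use the WT libraries that set the WT population difference, so they are no separate evidence of it.

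The genotype counts depended on the fit. Without the filter on low counts 27 nuclear members were called lower in dKO PD1+Tim3- (0.98% of all genes called) and 34 higher in dKO PD1+Tim3+ (2.05%), and without dKO PD1+Tim3+ replicate 1 the latter count was 35 (3.02%). DESeq2 and limma-voom called no nuclear member in either population; in PD1+Tim3+ they called 0.632% and 0.566% of all genes. Without dKO replicate 2 of both populations the medians were -0.20 and 0.19, and with length offsets -0.22 and 0.19. The median of those of 1000 bases or more was 0.11 in PD1+Tim3- and -0.05 in PD1+Tim3+.

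The test of whether the population difference itself differed between genotypes called no gene of 13073 (0%), while 46 of 79 nuclear members had an unadjusted p under 0.05, as did 10.1% of all genes. The median interaction of nuclear members was 0.75 (log2), with all 37 short members positive, and 0.41 without the second dKO libraries. DESeq2 called 21 nuclear members, all positive, among 1.9% of the genes to which it gave an adjusted p. The edgeR count was 40 without the low-count filter (1.40% of all genes) and 41 without dKO PD1+Tim3+ replicate 1 (2.36%). The highest values were those of Ndufa3 (1.9 ± 0.61, adjusted p = 0.33), Atp5e (1.69 ± 0.42, adjusted p = 0.22) and Atp5j2 (1.65 ± 0.37, adjusted p = 0.2), and the lowest those of Sdhc (-0.34), Ndufv1 (-0.33) and Atp5b (-0.33).

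Of the mitochondrially encoded genes, 12 of 13 mRNAs had a negative WT change (median -0.31), and 3 of 16 MT- rows were called, all lower and all in complex I, near the 17% of all genes called in either direction (8.76% lower). None was called without WT PD1+Tim3- replicate 1 or without either WT PD1+Tim3+ library. MT-Nd3 was at 266 and 177 CPM in WT PD1+Tim3-, 146 and 101 in dKO PD1+Tim3-, 81.6 and 74.4 in WT PD1+Tim3+, and at 90.3 and 230 in dKO PD1+Tim3+. Its pattern over the libraries was that of the short nuclear members, with the WT groups apart and the second dKO PD1+Tim3+ library high (-1.51 ± 0.35 in WT, adjusted p = 0.012). MT-Nd4l was at 608 and 426 against 349 and 310 CPM in WT (-0.65 ± 0.16, adjusted p = 0.018), and MT-Nd4 at 1377 and 1411 against 1079 and 1055 CPM (-0.39 ± 0.12, adjusted p = 0.044). Neither pair of WT groups overlapped. MT-Co1 (-0.10 ± 0.13, adjusted p = 0.62), MT-Nd1 (0.01, adjusted p = 0.95) and MT-Cytb (-0.16, adjusted p = 0.4) were not called. They are core subunits of complexes IV, I and III, and the 3 called rows are core subunits of complex I too.

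In dKO, 1 of 16 MT- rows was called, where 9.93% of all genes were: MT-Rnr1, the RNA of the small mitochondrial ribosomal subunit, at 3419 and 3372 CPM in dKO PD1+Tim3- and 4942 and 5235 CPM in dKO PD1+Tim3+. The groups were well apart (0.58 ± 0.12, adjusted p = 0.014), and without the second dKO libraries the change was 0.54 (adjusted p = 0.041). It was not called without either dKO PD1+Tim3- library (adjusted p = 0.10 in each case). The WT libraries were at 4142 and 3910 against 4446 and 4236 CPM, a change of 0.11 that was not called. MT-Rnr2, the RNA of the large subunit, was at 4863 and 4547 against 5114 and 5761 CPM in dKO (0.21, adjusted p = 0.38). The share of cytosolic ribosomal RNA was higher in the same PD1+Tim3+ libraries, and its part in the MT-Rnr1 result was not tested. No MT- row was called between genotypes or in the interaction. The 22 tRNA genes held 20 to 116 counts per library, 152 of their 448 counts in MT-Ts1serine, and 2 were at 0 in every library, so nothing can be said of them at this depth.

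**Figure D5:**
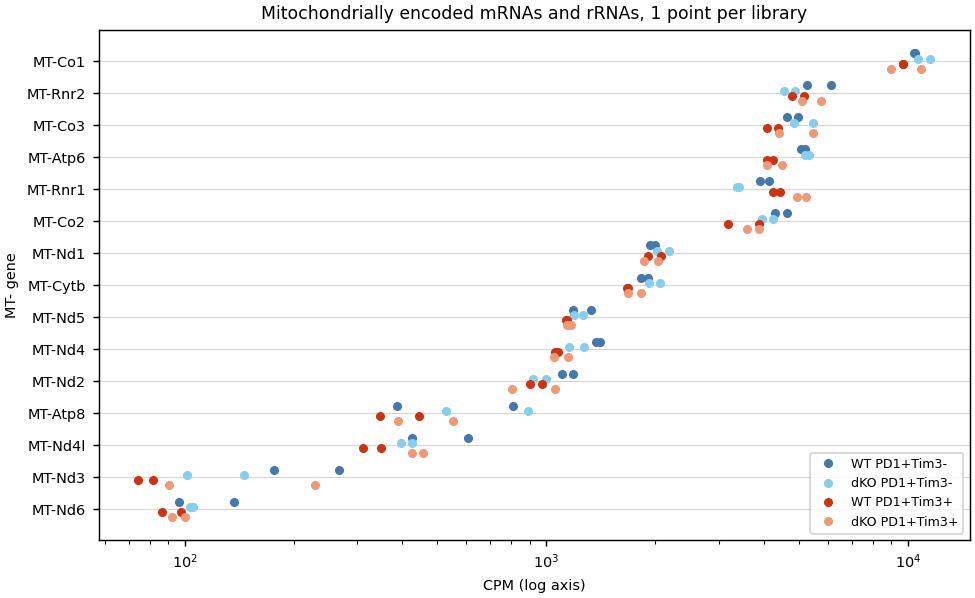
CPM (log axis) of the 13 mitochondrially encoded mRNAs and 2 rRNAs, 1 point per library and coloured by group. Levels run from below 100 CPM for MT-Nd3 and MT-Nd6 to about MT-Co1's 9017 to 11526 CPM, and the groups are apart for MT-Nd3 and MT-Nd4 in WT and for MT-Rnr1 in dKO.

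MT-Atp8 overlaps MT-Atp6 in mitochondrial DNA, and MT-Nd4l overlaps MT-Nd4. Each of these pairs is known to be carried on 1 mRNA, so their separate rows need care. MT-Atp6 and MT-Co3 also share 1 base, which is not printed here. The stretches below are from the GENCODE transcripts (GRCm38, plus strand), at chrM:7912-7984 and chrM:10152-10188, 5′ to 3′. Capitals mark the bases that belong to both genes, 43 and 7 of them, and begin with the start codon of the second gene.
MT-Atp8 and MT-Atp6: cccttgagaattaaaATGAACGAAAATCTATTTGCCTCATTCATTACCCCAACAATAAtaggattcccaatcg
MT-Nd4l and MT-Nd4: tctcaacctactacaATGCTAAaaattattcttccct
A read that overlaps the capitals can fit both rows. MT-Atp8, annotated at 204 bases, varied widely within groups, at 808 and 388 CPM in WT PD1+Tim3- and 529 and 892 in dKO PD1+Tim3-, while MT-Atp6 on the same mRNA was at 5064 and 5209, and 5214 and 5332 CPM. For MT-Nd4l the annotated 297 bases are the gene and not the mRNA it shares with MT-Nd4. With length offsets its WT change was 0.02 (adjusted p = 0.95) instead of -0.65, while MT-Nd3 (-0.88, adjusted p = 0.028) and MT-Nd4 (-0.53, adjusted p = 0.012) were still called.

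Genes that build and serve the chain, in lists that the symbol rule does not take, moved in few members. Of 44 assembly factors 7 were called lower in WT and none higher, with a median of 0.02, where 8.76% of all genes were called lower and 17% in either direction; Cox14, which stabilises newly made MT-Co1, was at 68.2 and 67.4 against 42.3 and 45.6 CPM (-0.62 ± 0.14, adjusted p = 0.01), and Cox20, a chaperone of MT-Co2, fell from 26.4 and 23.2 to 15.6 and 15.6 CPM (-0.68 ± 0.16, adjusted p = 0.013). With length offsets Cox14 was still called (-0.45, adjusted p = 0.027) and Cox20 was not (-0.19, adjusted p = 0.33). Of all genes 5.21% were called higher in dKO, and of the assembly factors 2 of 44 were. They were the complex I assembly factor Ndufaf3, at 12.5 and 8.92 against 26.1 and 18.8 CPM (0.98 ± 0.22, adjusted p = 0.02), and Cox17, the copper chaperone of complex IV, at 21.9 and 14.2 against 32.6 and 63.2 CPM (1.31 ± 0.29, adjusted p = 0.021). Of 10 further subunits and carriers, Usmg5, a small ATP synthase subunit, fell in WT from 53.5 and 44.2 to 25.2 and 24.1 CPM (-1.0 ± 0.23, adjusted p = 0.014), and was not called with length offsets (-0.38, adjusted p = 0.085). Gpd2, the glycerol-3-phosphate dehydrogenase that feeds electrons into the chain from cytosolic NADH, rose in both genotypes. It was at 16.8 and 17.4 against 29.9 and 29.3 CPM in WT (0.79 ± 0.13, adjusted p = 0.0032) and at 21.7 and 17.8 against 32.6 and 33.1 CPM in dKO (0.68 ± 0.14, adjusted p = 0.015). With a transcript of 5620 bases it is no short gene, and it was called with length offsets as well (adjusted p = 0.0021 and 0.011).

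Electron transfer flavoprotein subunit Etfb rose in dKO (0.68 ± 0.15, adjusted p = 0.02). For the lists that follow, 8.25% of all genes were called higher and 8.76% lower in WT, and 5.21% and 4.72% in dKO. Of 27 genes for the upkeep and expression of mitochondrial DNA, 1 was called higher in WT (Fastk, 0.45 ± 0.13, adjusted p = 0.032, or 0.10 with length offsets), 1 lower (Ssbp1, which coats single-stranded mitochondrial DNA, -0.43 ± 0.13, adjusted p = 0.044), and none in dKO. Of 14 citric acid cycle genes 2 were called higher in WT, Fh1, fumarase (0.41 ± 0.12, adjusted p = 0.033), and Mdh2, malate dehydrogenase (0.40 ± 0.12, adjusted p = 0.045), and none in dKO; with length offsets neither was called. Of 8 tested regulators of nuclear respiratory genes, Myc was lower in PD1+Tim3+ in dKO, at 102 and 90.8 against 55.3 and 56.5 CPM (-0.79 ± 0.12, adjusted p = 0.0031), and in WT (-0.42 ± 0.11, adjusted p = 0.025). Ppargc1b, a coactivator of respiratory genes, was lower in dKO, at 19.7 and 21.0 against 11.2 and 12.2 CPM (-0.79 ± 0.17, adjusted p = 0.019). No gene of these 5 lists was called between genotypes.

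Nuclear respiratory factor 1 (NRF1) and ETS-family factors are known regulators of nuclear respiratory genes, so the promoters were searched for their motifs. RefSeq promoters (GRCm38.p6, 250 bases before to 50 after each start) were matched by symbol for 66 of 84 nuclear members. The NRF1-type motif, GCGCA and GCGC with any 1 base between them on either strand, was in 17 of 66 (25.8%), against 11.4% of 9723 tested genes with a promoter. The ETS-type motif CCGGAAG, on either strand, was in 16 of 66 (24.2%), against 20.5%; 1 promoter may hold both. Members called lower in WT had the NRF1-type motif in 4 of 24 and the other tested members in 13 of 40. The stretches below lie upstream of the start, 5′ to 3′ on the gene's strand, with the motif in capitals; 3 belong to complex I members that fell in WT and 2 to long members that were not called there.
Ndufa5, chr6:24527691-24527741, minus strand: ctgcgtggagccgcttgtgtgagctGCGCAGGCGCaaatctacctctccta
Ndufb4, chr16:37654413-37654472, minus strand: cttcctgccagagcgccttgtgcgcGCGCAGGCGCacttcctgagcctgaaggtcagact
Ndufs6, chr13:73328483-73328523, minus strand: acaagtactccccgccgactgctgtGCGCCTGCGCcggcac
Sdha, chr13:74350261-74350320, minus strand: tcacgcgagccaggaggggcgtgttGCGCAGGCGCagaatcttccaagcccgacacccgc
Atp5c1, chr2:10080433-10080474, minus strand: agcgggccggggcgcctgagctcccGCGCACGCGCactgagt
The WT changes beside them were -1.06 for Ndufa5, -0.89 for Ndufb4 and -0.87 for Ndufs6, against 0.02 for Sdha and 0.21 for Atp5c1. The motif is thus found beside members of either behaviour, and a match in letters is a description, not a binding site.

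Some rows can share reads with other genes, and how the authors treated such reads was not stated. Of 84 nuclear members 47 share at least 1 stretch of 50 bases with a transcript of another gene, and 6 share more than 50% of their stretches: Atp5g2 and Ndufb4c (100% each), Atp5l (84.8%, with 12 pseudogenes), Atp5g1 (56.2%), Cox7c (53%) and Atp5h (50.5%). Their values are uncertain for that reason. Of the members described for WT, Atp5e, Cox7a2, Cox7b2, Atp5mpl, Ndufa3, Ndufs4 and Uqcrfs1 share none, Cox7b 0.63%, Atp5j2 3.75%, Ndufb3 6.72% and Cox6c 17.2%. Of the others called lower again with length offsets, Ndufa5 and Ndufv3 share none and Ndufb4 37%. Ndufb4 shares most with Ndufb4c, whose row holds 44.4% of the counts of that pair.

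Cox7b (ENSMUSG00000031231.4) lies on chromosome X at 106015700 to 106022450 on the plus strand, Atp5e (ENSMUSG00000016252.7) on chromosome 2 at 174461072 to 174464105 on the minus strand and Uqcrfs1 (ENSMUSG00000038462.3) on chromosome 13 at 30540308 to 30545362 on the minus strand, all protein-coding in GRCm38, which is mm10. Ndufa3 is on chromosome 7 at 3617373 to 3620327 and Cox5a on chromosome 9 at 57521279 to 57532426, both on the plus strand. MT-Nd3 takes bases 9459 to 9806 and MT-Rnr1 bases 70 to 1024 of mitochondrial DNA.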

How the data were processed

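The table holds whole-number counts per gene symbol, deposited by the authors; the submitters' processing notes name mm10, cutadapt 1.18 and Bowtie2 2.2.5, and no counter, annotation or strand setting was stated. Counts were fitted as deposited with edgeR 4.0.16 (glmQLFit, glmQLFTest, TMM, filterByExpr; all 8 libraries, 4 group means, 4 residual degrees of freedom) in R 4.3.3, adjusted by Benjamini-Hochberg over 13073 genes and called at 0.05. DESeq2 1.42.0 and limma 3.58.1 (voom) were alternatives. With 2 libraries a group, p-values measure the spread between these samples, which may be technical. Lengths came from GENCODE M21 (92.5% of tested genes matched), and length offsets from a lowess trend of span 0.2. Scripts were tested on simulated data. Members and lists were chosen with earlier results of these data known. Named were called members (the first 10 by adjusted p), the 3 highest and lowest nuclear changes, MT- rows, the 3 highest levels per kilobase, isoform pairs and called list genes; further members were named after their values were seen. The values of 1 member are not reported here.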

Additional observations from a re-analysis of the deposited data

Results flagged for a closer look

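The summed share of counts of nuclear members moved in opposite directions in the 2 genotypes, every library of a group lying beyond the other group: PD1+Tim3+ minus PD1+Tim3- was -0.108 percentage points in WT and 0.116 in dKO, and dKO minus WT was -0.102 in PD1+Tim3- and 0.123 in PD1+Tim3+. The nuclear members of complex I did the same, by -0.0178 in WT and 0.0495 in dKO, and by -0.032 in PD1+Tim3- and 0.0353 in PD1+Tim3+. For nuclear complex IV members dKO minus WT was -0.0555 in PD1+Tim3- and 0.0562 in PD1+Tim3+. Without Cox7b the WT difference of nuclear members was -0.0135 and dKO minus WT in PD1+Tim3- was -0.0855, both with overlapping groups. Over a total without MT- and rRNA rows the WT difference of complex I members was -0.00727, with overlapping groups. These differences were not tested and the comparisons share libraries.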

How the results depend on the processing

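Counts of calls moved with the low-count filter, the tool, length offsets and the libraries fitted, while nuclear medians kept their sign under every alternative run. Without the filter, in the order dKO against WT in PD1+Tim3-, the same in PD1+Tim3+, PD1+Tim3+ against PD1+Tim3- in WT, the same in dKO, and interaction, 27, 34, 44, 29 and 40 nuclear members and 1, 1, 5, 2 and 2 MT- rows were called. The shares of all genes called were 0.98%, 2.05%, 11.4%, 7.45% and 1.40% in that order. Offsets for transcript length gave 17 nuclear calls in WT and 2 MT- calls in dKO, nuclear medians of 0.19 (genotype in PD1+Tim3+), -0.19 (WT) and 0.45 (interaction), and MT- medians of 0.0385, 0.033, -0.11, -0.22 and -0.00587 in that order. Offsets for the longest transcript, an alternative chosen after seeing the data, gave 1 nuclear and 2 MT- calls in dKO (9.48% of all genes). Nuclear medians were 0.21, -0.18 and 0.44, and MT- medians 0.0612, 0.00803, -0.0409, -0.24 and -0.0272. MT-Nd4l reversed in WT to 0.0245 with the first and 0.034 with the second.

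Same-numbered libraries did not deviate together (correlations -0.18 to 0.02). With 2 libraries a group this cannot decide whether the numbers pair the samples, so fits with and without pairing are given. With a replicate block 20 nuclear members and 2 MT- rows were called in WT, where 12.8% of all genes were. In dKO the counts were 0 and 0, where 5.48% of all genes were called. Blocked by mouse, which takes same-numbered libraries of a genotype as 1 mouse, the counts were 19, 2, 0 and 0. That fit called 11.7% of all genes in WT and 7.7% in dKO. The replicate block with length offsets gave 7 and 1 in WT (11.6% of all genes) and 0 and 0 in dKO (5.07%). Its nuclear medians were 0.19, -0.19 and 0.43, its MT- medians 0.0384, 0.0312, -0.11, -0.22 and -0.0175, and MT-Nd4l was at 0.0309.

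DESeq2 called 8 nuclear members in dKO and 21 in the interaction; limma-voom called 1 in dKO and 5 MT- rows in WT. With only the 4 libraries compared, 46 nuclear members were called in WT and 0 MT- rows in dKO. Without dKO replicate 2 of both populations, also chosen after seeing the data, 45 nuclear members were called in WT and 1 in dKO, nuclear medians were 0.19 (genotype in PD1+Tim3+), 0.0127 (dKO) and 0.41 (interaction), and MT- medians 0.12 and -0.0341 (genotype in PD1+Tim3+, dKO). Under it Sdhc (0.0054) and Uqcrfs1 (0.0351) reversed between genotypes in PD1+Tim3+, as without dKO PD1+Tim3+ replicate 2 alone (0.000531 and 0.0302), and Cox8a reversed in dKO (-0.0409).

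Leaving out 1 library at a time gave 0 to 35 nuclear and 0 to 1 MT- calls between genotypes in PD1+Tim3+, 0 to 44 and 0 to 4 in WT, 0 to 32 and 0 to 2 in dKO, and 0 to 41 and 0 to 1 in the interaction; each maximum was reached without dKO PD1+Tim3+ replicate 1. Nuclear medians ranged from -0.56 to -0.20, 0.19 to 0.66, -0.47 to -0.37, 0.16 to 0.59 and 0.53 to 1.11, and MT- medians from -0.15 to 0.0505, 0.0616 to 0.12, -0.31 to -0.15, -0.14 to -0.09 and 0.0317 to 0.22. Cox7b2 reversed in dKO to 0.26 without dKO PD1+Tim3- replicate 1, and ranged from -0.73 to 0.26. Sdhc ranged from -0.26 to 0.000531 and Uqcrfs1 from -0.27 to 0.0302. A group left with 1 library was assumed to vary like the others. The causes were not tested.

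Over a total without MT- and rRNA rows, the shares of nuclear members were 1.21%, 1.10%, 1.15% and 1.31% (WT and dKO PD1+Tim3-, WT and dKO PD1+Tim3+) and of MT- rows 4.44%, 4.49%, 4.6% and 4.71%; over subunits only the WT nuclear shares were 1.10% and 0.995%. With 2 libraries a group, and 1944999 counts in the smallest, changes in rarely counted members such as Atp5s or Cox6b2 were not detectable at this depth.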
